A study of Homo sapiens with 12 samples.

Results

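The 10 long noncoding RNAs (lncRNAs) that were followed here are widely studied in cancer: MALAT1, NEAT1, GAS5, SNHG1, MIR31HG, UCA1, PVT1, H19, MEG3 and HOTAIR. They were chosen by gene symbol, whatever their values, and are 10 of the 61806 genes in the deposited table. A filter on low counts kept 7 of them for testing, and H19, MEG3 and HOTAIR did not pass it in either cell line. RNA was sequenced from TPC-1 and K1, both established lines of human papillary thyroid cancer whose genotype is labelled wild type. Each line was transfected with a negative control siRNA or with siRNA against TRIM35, a ubiquitin ligase of the tripartite motif family, and harvested after 24 h. The 4 groups are TPC-1 control, TPC-1 siRNA, K1 control and K1 siRNA, with 3 libraries each and 12 in all. Whether the libraries of a group came from separate cultures is not given in the sources used here, so p-values cover the library-to-library spread alone, and that spread may be technical. Each line is a single cell line, so a difference between K1 and TPC-1 is one between these lines, and in bulk RNA fewer expressing cells and less RNA per cell cannot be told apart.

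An lncRNA is a transcript longer than the small RNAs that encodes no known protein. MALAT1 and NEAT1 stay in the nucleus, where MALAT1 gathers in nuclear speckles beside splicing factors and NEAT1 is the scaffold of paraspeckles. GAS5 and SNHG1 are spliced hosts whose introns carry small nucleolar RNAs (snoRNAs), and whose exons are removed by nonsense-mediated decay during translation. H19 and MEG3 are imprinted, HOTAIR lies antisense in the HOXC cluster and is known for binding the chromatin complexes PRC2 and LSD1, and UCA1 was named for urothelial cancer. PVT1 is the neighbour of the MYC oncogene, and MIR31HG is the host of the microRNA miR-31.

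The ends of MALAT1 and the longest NEAT1 transcript are shown because both keep a similar 3′ end in place of an ordinary poly(A) tail. A tRNA-like RNA is cut off downstream, and U-rich stretches fold with an A-rich tract into a triple helix. Each window is 110 bases of the hg38 plus strand, read 5′ to 3′, and capitals mark the runs of at least 8 bases that occur in both. The NEAT1 window, chr11:65445431-65445540, is the end of the longest annotated NEAT1 transcript. The MALAT1 window, chr11:65506007-65506116, ends 353 bases before the end of the longest annotated MALAT1 transcript, at the A-rich run that it shares with NEAT1.
MALAT1: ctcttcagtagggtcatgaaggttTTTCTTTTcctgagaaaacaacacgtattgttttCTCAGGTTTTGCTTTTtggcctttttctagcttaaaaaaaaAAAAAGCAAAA
NEAT1: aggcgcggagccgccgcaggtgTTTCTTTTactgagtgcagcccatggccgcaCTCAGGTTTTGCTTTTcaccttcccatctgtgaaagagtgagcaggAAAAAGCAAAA
Between them, 35 of the 110 bases lie in these runs. On the transcript strand, the run TTTCTTTT was found in 1.38% of the last 110 bases of 201525 GENCODE 29 transcripts and AAAAAGCAAAA in 0.0491%. The run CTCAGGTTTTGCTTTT was found in 1 transcript end, that of NEAT1 itself. Sequence outside the capitals differs, and T makes up 37.3% of the MALAT1 window against 23.6% of the NEAT1 window.

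The libraries held between 16705044 and 22928861 counts, and the 10 lncRNAs together took between 0.0644% and 0.136% of a library. TRIM35, the targeted gene, measured 2.86 to 3.06 FPKM (counts per kilobase of exon, scaled to library size) in TPC-1 control and 2.34 to 2.58 FPKM in TPC-1 siRNA libraries. The K1 control libraries measured 1.47 to 1.85 FPKM and the K1 siRNA libraries 1.20 to 1.53 FPKM. It was not called lower in either line (edgeR, adjusted p = 1 in both), so "siRNA" below names the label of a library rather than a measured loss of TRIM35. Of 9 thyroid follicular markers, 3 reached a group mean of 1 FPKM in both lines (PAX8, FOXE1 and HHEX), whereas thyroglobulin (TG), SLC5A5, TSHR, NKX2-1 and DUOX2 were among those below it. Of 6 epithelial markers, 2 reached that mean in TPC-1 control and 3 in K1 control, and CDH1 measured at most 0.02 FPKM in any library. All 4 mesenchymal markers (VIM, FN1, CDH2 and ZEB1) reached it in both. Summed, these 4 measured 598 to 1080 FPKM in TPC-1 and 3980 to 4760 FPKM in K1 libraries. Summed markers of fibroblasts lay between 1.13 and 2.41 FPKM in any library, and those of leukocytes and endothelium at up to 0.64 and 0.11 FPKM in TPC-1 and 6.12 and 2.00 FPKM in K1, of which CD14 (4.42 FPKM) and KDR (1.44 FPKM) made up most in K1 control.

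The lncRNAs differed from each other by several orders of magnitude, and the order of their levels changed between the lines. In FPKM, which divides counts by the summed length of all annotated exons of a gene, GAS5 stood highest in all 4 groups, followed by SNHG1 and NEAT1. In TPC-1 control the next were PVT1, UCA1 and MALAT1, at 3.27 ± 0.308, 3.01 ± 0.324 and 2.44 ± 0.331 FPKM (SD, n = 3). The ranges of PVT1 and UCA1 overlapped there, and so did those of UCA1 and MALAT1, so these neighbours were not separated by their spread. In K1 control MALAT1 came next at 7.48 ± 2.25 FPKM, then MIR31HG at 1.18 ± 0.133 and PVT1 at 0.793 ± 0.115 FPKM (SD, n = 3), with no overlap between neighbours, and UCA1 was at the floor. Annotated exon length weighs on this order: the exons of NEAT1, PVT1, MIR31HG and MEG3 add up to 22767, 25431, 16590 and 23224 bases. A transcript that uses only part of them gets a lower FPKM than its abundance would give. How reads shared with overlapping genes were counted is not given, which leaves the place of MALAT1 in this order uncertain.

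**Figure D1:**
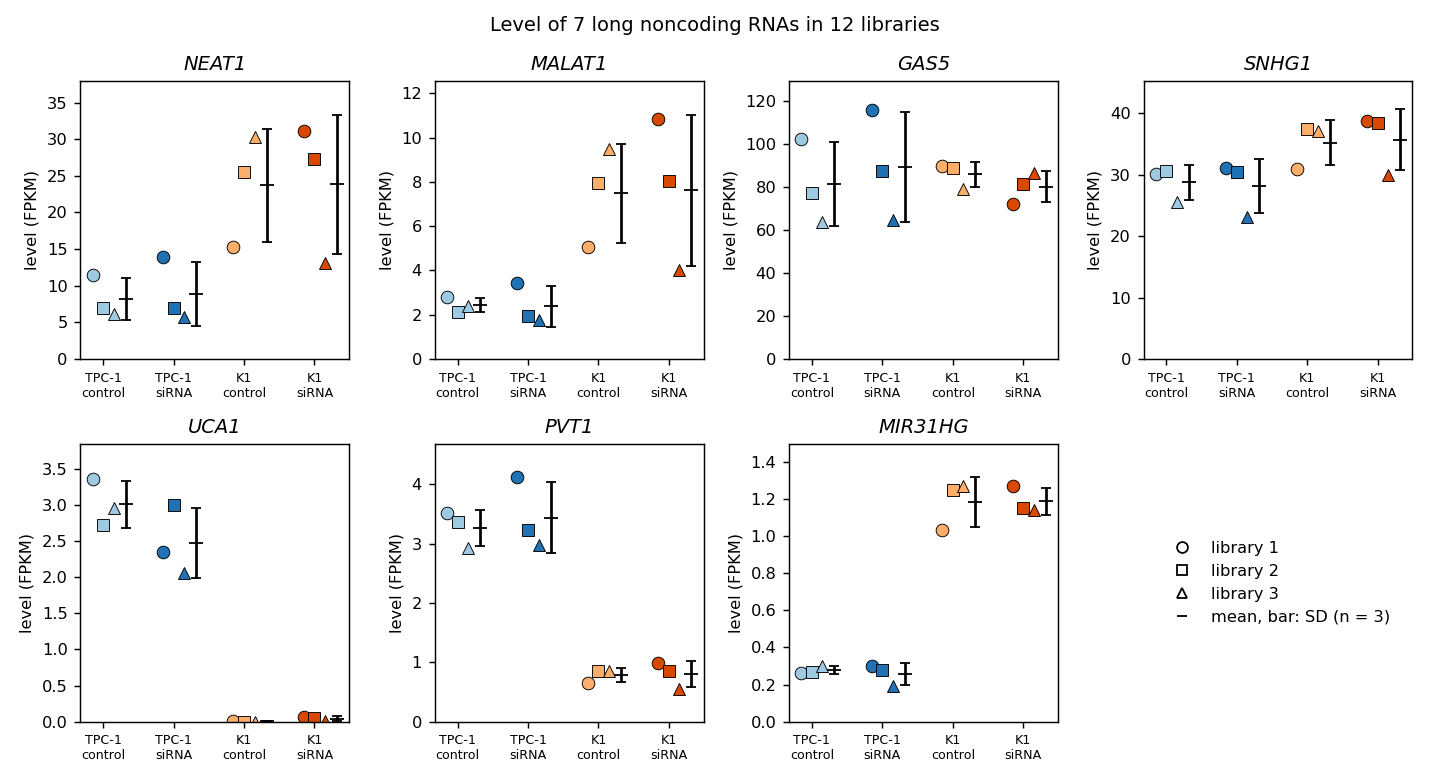
Level in FPKM (vertical axes, each from 0) of the 7 tested lncRNAs in the 12 libraries, by group; points are libraries and the bar beside them is the mean ± SD (n = 3). Control and siRNA points overlap in each line, while every K1 point lies above every TPC-1 point for MALAT1 and MIR31HG and below for UCA1 and PVT1.

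Between the control libraries of the lines, 5 of the 7 tested lncRNAs were called: MALAT1, NEAT1 and MIR31HG higher in K1, and UCA1 and PVT1 lower. UCA1 passed the filter on low counts only through TPC-1, the line in which it is high. A call here is a Benjamini-Hochberg adjusted p under 0.05 in edgeR's quasi-likelihood test over all 17447 tested genes. The lines differ widely, and 67.9% of all tested genes were called, 35.8% higher and 32.1% lower in K1, so that 5 of 7 is near the share among genes at large. GAS5 and SNHG1, the snoRNA hosts, were not called. The number of lncRNAs called was 5 under all 23 alternative settings. Of the scalings, the upper quartile moved the median of all tested genes from 0.06 to 0.205, without turning the direction of any called lncRNA.

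NEAT1 (ENSG00000245532; hg38, chromosome 11, 65422774 to 65445540, plus strand) measured 11.45, 6.96 and 6.12 FPKM in TPC-1 control libraries 1, 2 and 3. The K1 control libraries 1, 2 and 3 measured 15.25, 25.51 and 30.30 FPKM. Every K1 control library thus lay above every TPC-1 control library, although the siRNA libraries overlapped, with K1 siRNA library 3 at 13.09 FPKM below TPC-1 siRNA library 1 at 13.91 FPKM. The fitted level was 2.69-fold higher in K1 (95% interval 1.64 to 4.43, log2 fold change 1.43, SE 0.34; edgeR, adjusted p = 0.0015). NEAT1 was covered by 2537 to 5876 counts per TPC-1 library and 5520 to 13114 per K1 library, so that counting error was small beside the spread between libraries, which reached a coefficient of variation of 32.5% in K1 control and 49.8% in TPC-1 siRNA libraries.

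MALAT1 (ENSG00000251562; chromosome 11, 65497688 to 65506516, plus strand) lies on the same strand downstream of NEAT1. It measured 2.78, 2.12 and 2.41 FPKM in the TPC-1 control libraries and 5.04, 7.94 and 9.47 FPKM in the K1 control libraries. All 6 K1 libraries, siRNA included, were above all 6 TPC-1 libraries, which reached 3.45 FPKM at most. The difference was 2.85-fold (95% interval 1.85 to 4.38, log2 fold change 1.51, SE 0.29; edgeR, adjusted p = 0.000277). TALAM1, annotated antisense to MALAT1, had 5 and 2 counts in the TPC-1 and K1 control libraries together. The counting is not stated to use strand, so reads of MALAT1 and TALAM1 cannot be told apart.

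NEAT1 stood between 3 and 4 times the level of MALAT1 in every group on average. The ratio of their FPKM values was 3.31 ± 0.790 in TPC-1 control, 3.63 ± 0.392 in TPC-1 siRNA, 3.15 ± 0.104 in K1 control and 3.17 ± 0.269 in K1 siRNA libraries (SD, n = 3). Thus both RNAs were higher in K1 by a similar factor. The transcripts of a gene were not counted apart, and any poly(A) selection is not given, so the ratio is one of gene-level values. TALAM1 spans 65499312 to 65507432 on the strand opposite to MALAT1. How reads in this overlap were counted is not given, so the level of MALAT1 and the ratio are uncertain. FRMD8, a FERM-domain gene upstream of NEAT1, was not called, with a log2 fold change of 0.12 (SE 0.14; edgeR, adjusted p = 0.441).

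**Figure D2:**
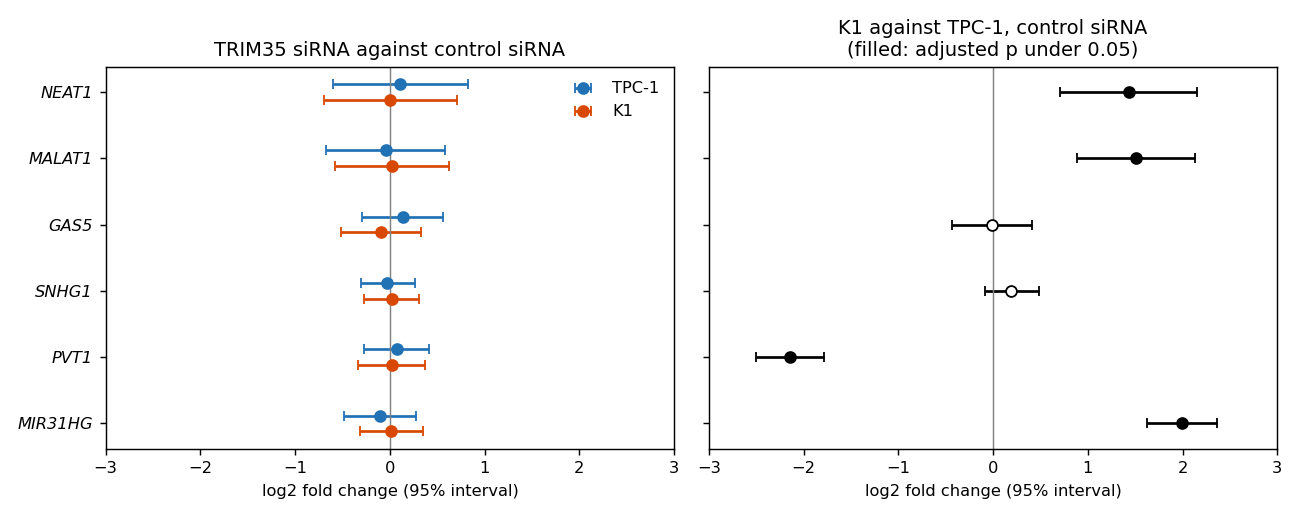
Log2 fold change of 6 tested lncRNAs with 95% intervals (horizontal axes): left, siRNA against control libraries in TPC-1 and in K1; right, K1 against TPC-1 control libraries, filled where the adjusted p was under 0.05. The siRNA intervals all span 0, while NEAT1, MALAT1 and MIR31HG lie to the right and PVT1 to the left in the line comparison; UCA1 is left out because it had 1 count in K1 control.

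Within K1, NEAT1 and MALAT1 were low together in 2 libraries of opposite treatment. In K1 siRNA libraries 1, 2 and 3 NEAT1 measured 31.16, 27.29 and 13.09 FPKM and MALAT1 10.83, 8.02 and 4.04 FPKM. K1 control library 1 and K1 siRNA library 3 were thus the lowest of the line in both RNAs, and K1 siRNA library 1 the highest. The same 2 libraries had 1.40% and 1.33% of their counts in lncRNA genes, against 1.63% to 1.78% in the other 4. Their ribosomal protein share was 6.48% and 6.66%, against 4.27% to 5.50%. They also lay at one end of the first principal component of K1, at -32.8 and -49.5 against 3.6 to 32.3, which held 54.3% of the variance. The part of these library measures in the level of NEAT1 and MALAT1 was not tested. Without these 2 libraries, an alternative chosen after seeing the data, the line difference was 1.65 for NEAT1 and 1.72 for MALAT1 on the log2 scale and both stayed called.

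Across the 6 libraries of K1, NEAT1 and MALAT1 levels had a Pearson r of 0.98 (exact permutation p = 0.00278, adjusted 0.0625) and a Spearman rho of 0.94 (exact permutation p = 0.0167, adjusted 0.200), with r at 0.93 after the 2 libraries farthest from the MALAT1 median were left out. Across the 6 libraries of TPC-1, r was 0.89 (exact permutation p = 0.0167, adjusted 0.0668) and rho 0.77 (exact permutation p = 0.103, adjusted 0.337), with r at 0.64 without the 2 farthest. NEAT1 and GAS5 went in opposite ways in the lines. In TPC-1 r was 0.93 (exact permutation p = 0.00417, adjusted 0.0625) and rho 1.00 (exact permutation p = 0.00278, adjusted 0.1), and r was 0.92 without the 2 farthest. In K1 r was -0.86 (exact permutation p = 0.0167, adjusted 0.0668) and rho -0.94 (exact permutation p = 0.0167, adjusted 0.200), and r was -0.94 without the 2 farthest. These are 4 of 36 relations computed between tested lncRNAs, and none of the 36 passed 0.05 after adjustment. The difference between the lines in the NEAT1 and GAS5 relation was not tested. The libraries of a line share depth and composition as well: in TPC-1 the mitochondrial share ran from 2.19% to 4.65% and was highest in siRNA library 1 and control library 1, the libraries with the most NEAT1 and GAS5.

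**Figure D3:**
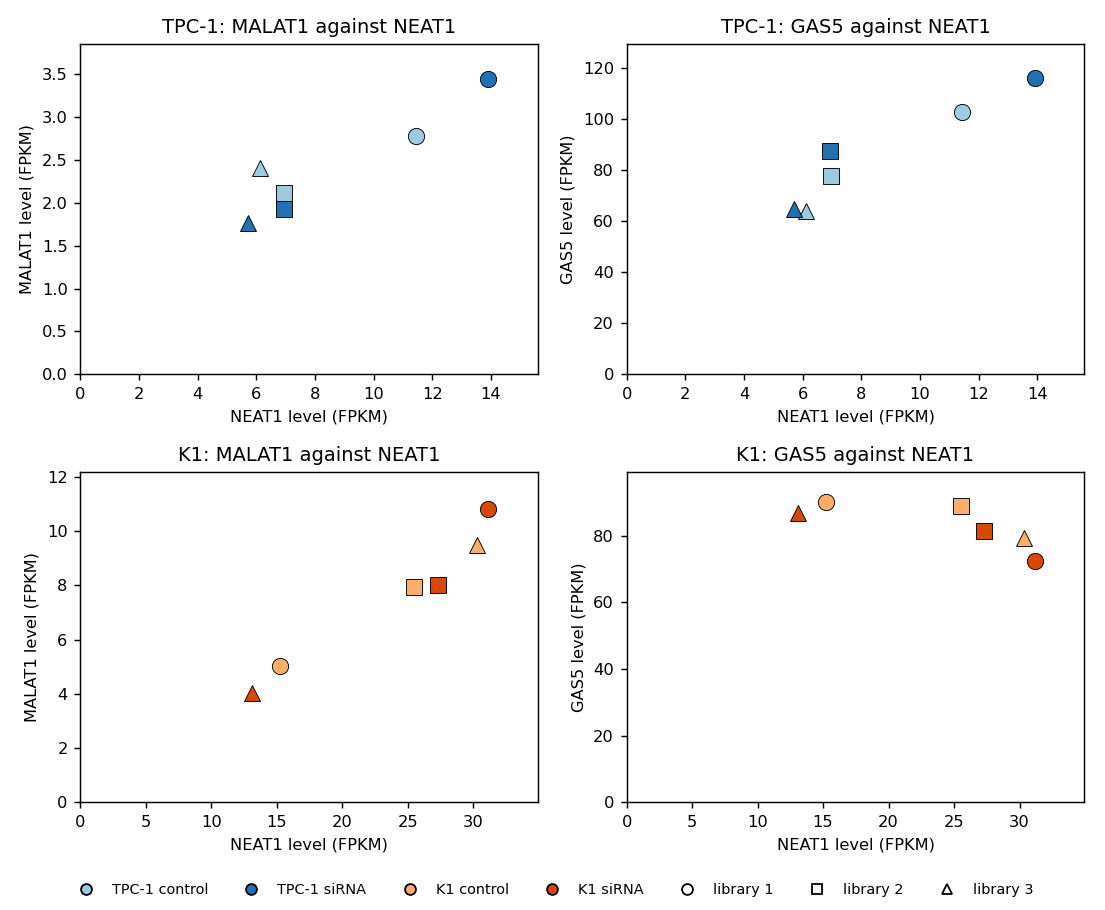
Levels in FPKM of MALAT1 (left) and GAS5 (right) on the vertical axes against NEAT1 on the horizontal axes, in the 6 TPC-1 (top) and 6 K1 libraries (bottom); colours give the group and shapes the library number. MALAT1 is higher in libraries with more NEAT1 in both lines, while GAS5 is higher with NEAT1 in TPC-1 (r 0.93) and lower with it in K1 (r -0.86).

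GAS5 (ENSG00000234741; chromosome 1, 173858559 to 173868882, minus strand) was the most abundant of the lncRNAs and did not differ detectably between the lines. It measured 102.61, 77.50 and 63.95 FPKM in TPC-1 control and 90.00, 88.85 and 79.31 FPKM in K1 control libraries. The K1 values lay inside the TPC-1 range. The log2 fold change was -0.01 (SE 0.20), a ratio of 0.993 with a 95% interval of 0.740 to 1.33 (edgeR, adjusted p = 0.967), and its sign turned with other scalings (0.023 by RLE and 0.125 by upper quartile). The spread was unequal: the coefficient of variation was 24.1% and 28.8% in the TPC-1 control and siRNA libraries and 6.82% and 9.05% in those of K1. GAS5 overlaps genes on the opposite strand, ZBTB37 and GAS5-AS1 among them, and without strand their reads cannot be told apart. In the deposited counts ZBTB37, a zinc finger gene, was higher in K1 at 1.22 (SE 0.24; edgeR, adjusted p = 0.000298), while GAS5-AS1 lay at -0.18 (SE 0.30; adjusted p = 0.608).

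SNHG1 (ENSG00000255717; chromosome 11, 62851978 to 62855953, minus strand) was slightly higher in K1 control libraries without passing the test. It measured 30.10, 30.62 and 25.49 FPKM in TPC-1 control and 30.98, 37.50 and 37.16 FPKM in K1 control libraries. The groups did not overlap, but the lowest K1 value was next to the highest TPC-1 value. The log2 fold change was 0.19 (SE 0.13), a ratio of 1.14 with a 95% interval of 0.938 to 1.39 (edgeR, adjusted p = 0.212). Over the 23 alternatives its adjusted p ran from 0.0528 to 0.527, and none called it. The ratio of GAS5 to SNHG1 in FPKM was 2.82 ± 0.513 in TPC-1 control and 2.47 ± 0.395 in K1 control libraries (SD, n = 3), so that the snoRNA hosts kept their order in both lines.

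The promoter window of SNHG1 is shown because a gene that did differ between the lines starts beside it. SLC3A2, which encodes the heavy chain of amino acid transporters, begins on the opposite strand 51 bases from the SNHG1 start given in the table. Its level was 43.0 FPKM in TPC-1 and 18.7 FPKM in K1 control libraries, with a log2 fold change of -1.29 (SE 0.13; edgeR, adjusted p = 2.00e-07). The window is RefSeq's, 250 bases before to 50 bases after the SNHG1 start in GRCh38.p14, chr11:62855836-62856135, read 5′ to 3′ on the minus strand. Capitals mark the 50 bases that lie between the spans of SNHG1 and SLC3A2 in the table.
SNHG1: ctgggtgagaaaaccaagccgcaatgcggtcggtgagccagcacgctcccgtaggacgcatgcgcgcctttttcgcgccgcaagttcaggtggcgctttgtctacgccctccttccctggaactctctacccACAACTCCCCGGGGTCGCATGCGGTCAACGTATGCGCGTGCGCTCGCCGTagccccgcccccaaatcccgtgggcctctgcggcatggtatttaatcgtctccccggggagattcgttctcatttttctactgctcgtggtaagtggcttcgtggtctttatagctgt
Its GC content of 60% was near the median of 58.7% over 35116 RefSeq promoters of that length. On its other side, WDR74, a ribosome biogenesis gene, was higher in K1 at 0.37 (SE 0.15; edgeR, adjusted p = 0.0382).

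MIR31HG (ENSG00000171889; chromosome 9, 21380073 to 21559891, minus strand) was higher in K1, though low in both lines. It measured 0.26, 0.27 and 0.30 FPKM in TPC-1 control and 1.03, 1.25 and 1.27 FPKM in K1 control libraries. All 6 K1 libraries were at or above 1.03 FPKM and all 6 TPC-1 libraries at or below 0.30 FPKM. The difference was 3.98-fold (95% interval 3.09 to 5.13, log2 fold change 1.99, SE 0.17; edgeR, adjusted p = 5.42e-08). With limma on log2(FPKM + 1) it was 0.77 on the log2 scale, since a pseudocount of 1 is large beside these levels. MIR31HG was covered by 71 to 97 counts per TPC-1 library and 349 to 467 per K1 library.

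The microRNA that MIR31HG hosts is shown with its seed, bases 2 to 8, in capitals, since the seed is the part that pairs with target mRNAs. It is read 5′ to 3′ from the minus strand of GRCh38.p14 at chr9:21512158-21512178, and its hairpin lies inside MIR31HG on the same strand.
hsa-miR-31-5p: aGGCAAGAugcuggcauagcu
These libraries do not measure the mature microRNA: the MIR31 gene itself had 0 counts in TPC-1 control and 2 in K1 control libraries. IFNE, an epithelial interferon gene that overlaps MIR31HG on the same strand, was also higher in K1, at 0.507 FPKM in TPC-1 and 9.24 FPKM in K1 control (log2 fold change 4.07, SE 0.48; edgeR, adjusted p = 2.00e-06). How the authors' counting divided reads between these overlapping genes is not given in the sources used here, so their separate values are uncertain. Of the nearest tested coding genes, KLHL9, an adaptor of a ubiquitin ligase, was near 0 at -0.20 (SE 0.14; adjusted p = 0.223). MTAP, the methylthioadenosine phosphorylase of the methionine salvage pathway, had 5958 counts in TPC-1 control and 5 in K1 control libraries (log2 fold change -10.38, SE 0.28; adjusted p = 6.82e-14), so that the genes on either side of MIR31HG did not share its direction. MTAP passed the filter on low counts only through TPC-1, the line in which it is high.

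UCA1 (ENSG00000214049; chromosome 19, 15828206 to 15836328, plus strand) was present in TPC-1 and nearly undetected in K1. The TPC-1 control libraries had 258, 203 and 223 counts, or 3.36, 2.72 and 2.95 FPKM, and the K1 control libraries 1, 0 and 0 counts. Summed over each group, 684 counts stood against 1, a ratio of 777 relative to library totals with a 95% counting interval of 139 to 30800. The edgeR call had an adjusted p of 8.17e-11, for a gene that passed the filter only through its TPC-1 libraries. Without K1 control library 1 the K1 control group had no count, and the fitted log2 fold change went from -9.20 to -10.96. Its value depends on the prior count, and with limma on FPKM plus 0.1 or 1 it was -4.91 or -1.996. The siRNA libraries gave the same order, with 181, 256 and 192 counts in TPC-1 and 5, 4 and 1 counts in K1, a ratio of 57.6 (95% counting interval 31.1 to 121). These intervals cover counting error only. The nearest tested coding genes moved less. WIZ, a zinc finger gene 378250 bases away, was lower in K1 at -0.41 (SE 0.14, edgeR, adjusted p = 0.0148). CYP4F11, a fatty acid hydroxylase gene 76039 bases away, was higher at 1.59 (SE 0.32, edgeR, adjusted p = 0.000422).

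PVT1 (ENSG00000249859; chromosome 8, plus strand) was lower in K1, as was its neighbour MYC. PVT1 measured 3.51, 3.37 and 2.92 FPKM in TPC-1 control and 0.66, 0.86 and 0.86 FPKM in K1 control libraries. All 6 TPC-1 libraries lay above all 6 K1 libraries, which reached 0.99 FPKM at most. The TPC-1 level was 4.41-fold that of K1 (95% interval 3.44 to 5.66, log2 fold change of K1 against TPC-1 -2.14, SE 0.17; edgeR, adjusted p = 1.73e-08), and with limma on log2(FPKM + 1) the log2 value was -1.25. MYC, the transcription factor upstream of PVT1 on the same strand, measured 41.5 FPKM in TPC-1 and 9.03 FPKM in K1 control libraries, with a log2 fold change of -2.29 (SE 0.15; adjusted p = 1.27e-09). CYRIB, a RAC1-binding protein gene 1652492 bases away on the far side, was also lower, at -1.60 (SE 0.14, edgeR, adjusted p = 5.30e-08). Of all tested genes, 32.1% were called lower in K1. The interval of MYC overlaps that of PVT1. The ratio of PVT1 to MIR31HG in FPKM was 11.9 ± 1.95 in TPC-1 control and 0.669 ± 0.0247 in K1 control libraries (SD, n = 3), which shows how far the lines inverted the order of these lncRNAs.

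**Figure D4:**
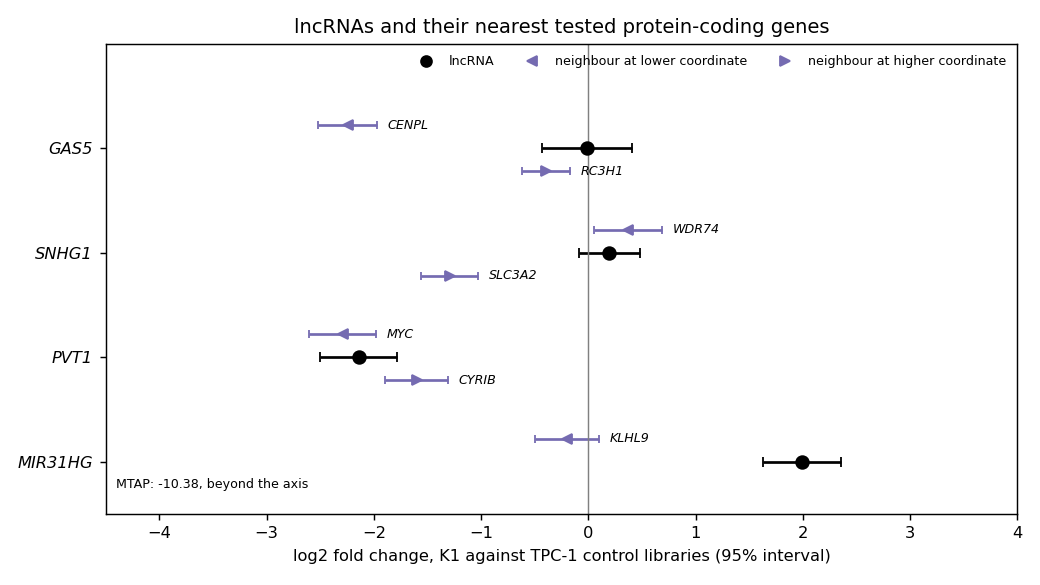
Log2 fold change of K1 against TPC-1 control libraries with 95% intervals (horizontal axis) for 4 lncRNAs (circles) and the nearest tested protein-coding gene on either side (triangles). MYC and CYRIB, the latter 1652492 bases away, lie below 0 as PVT1 does. SLC3A2 lies below 0 beside SNHG1 at 0.19, and MTAP is beyond the axis at -10.38.

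H19, MEG3 and HOTAIR were at or near 0 in both lines. H19 (ENSG00000130600; chromosome 11, 1995166 to 2001470, minus strand), a maternally expressed RNA, had 4 counts over the 6 TPC-1 libraries, of which 3 were in control library 3, and 1 count over the 6 K1 libraries. MEG3 (ENSG00000214548; chromosome 14, 100779410 to 100861031, plus strand), the maternally expressed RNA of the DLK1 domain, had 1 and 3 counts. HOTAIR (ENSG00000228630; chromosome 12, 53962308 to 53974956, minus strand) had 0 counts in all 6 TPC-1 libraries and 10 counts over the 6 K1 libraries, of which 6 came from siRNA library 2. In a group of 3 libraries, 3 counts correspond to between 0.0483 and 0.0549 CPM, which scales a count to library size, and this is the limit that a count of 0 allows. No fold change is given for H19 or MEG3. For HOTAIR, with 4 counts in K1 control and 0 in TPC-1 control, the exact two-sided 95% Poisson intervals were 0.0175 to 0.165 CPM and 0 to 0.0675 CPM. They overlap, which is not a test of a difference. HOTAIR did not pass the filter for testing, so no difference between the lines is stated.

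The surroundings of these 3 RNAs differed. IGF2, the growth factor gene that is imprinted opposite to H19, had 566 counts in TPC-1 control and 16 in K1 control libraries (log2 fold change -5.40, SE 0.40; edgeR, adjusted p = 9.69e-09), though H19 had hardly a count in either. IGF2 passed the filter on low counts only through TPC-1, the line in which it is high. MRPL23, a mitochondrial ribosomal protein gene on the other side, was higher in K1 at 3.35 (SE 0.36; adjusted p = 7.85e-07). The genes of the MEG3 domain on the list of imprinted genes, DLK1, RTL1, MEG8, MEG9 and DIO3, had a mean of 0 FPKM in all 4 groups. The nearest tested coding genes, WDR25 at 249107 bases and PPP2R5C at 900678 bases from MEG3, lay at -0.52 (SE 0.24; adjusted p = 0.0668) and -0.20 (SE 0.14; adjusted p = 0.202). CALCOCO1, a coactivator and autophagy receptor gene 234563 bases from HOTAIR, was higher in K1 at 1.21 (SE 0.17, edgeR, adjusted p = 1.10e-05). SMUG1, a DNA glycosylase gene 146321 bases from HOTAIR, lay at -0.05 (SE 0.16, edgeR, adjusted p = 0.777). None of the 13 genes of the HOXC cluster that were looked up passed the filter on low counts.

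With TRIM35 siRNA, none of the 7 tested lncRNAs was called in either line. EdgeR called 0% of the 17447 tested genes in TPC-1, 0% in K1 and 0% for the difference between the lines, with 337, 136 and 301 genes at an unadjusted p under 0.05. DESeq2 called 2, 0 and 2 genes, none of them an lncRNA followed here. The control and siRNA libraries overlapped for each of the 7 tested lncRNAs in both lines. H19, MEG3 and HOTAIR had too few counts for overlap to be informative. The share of all tested genes whose libraries overlapped was not computed, so this overlap is a description only.

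The intervals show, for each gene on its own, the range of siRNA effects that these libraries do not exclude at 95%. They are not adjusted for the number of tested genes, as the calls are. SNHG1 was bounded most closely. Its siRNA libraries 1, 2 and 3 measured 31.05, 30.41 and 23.17 FPKM in TPC-1 and 38.69, 38.40 and 30.02 FPKM in K1, on both sides of the control values. The siRNA to control ratio was 0.983 (95% interval 0.806 to 1.20) in TPC-1 and 1.01 (0.832 to 1.24) in K1. PVT1, with 4.12, 3.23 and 2.97 FPKM in the TPC-1 and 0.99, 0.86 and 0.56 FPKM in the K1 siRNA libraries, had ratios of 1.05 (0.831 to 1.33) and 1.01 (0.792 to 1.29). MIR31HG, with 0.30, 0.28 and 0.19 FPKM and with 1.27, 1.15 and 1.14 FPKM in the siRNA libraries of TPC-1 and K1, had ratios of 0.932 (0.714 to 1.22) and 1.01 (0.799 to 1.27). The values of PVT1 and MIR31HG stayed close to those of the control libraries of the same line, far from those of the other line. GAS5 measured 116.04, 87.52 and 64.58 FPKM in the TPC-1 and 72.40, 81.51 and 86.74 FPKM in the K1 siRNA libraries. Its ratios were 1.10 (0.819 to 1.47) and 0.937 (0.699 to 1.26). The nuclear RNAs varied more between libraries, and their bounds were wider. NEAT1 stood at 1.08 (0.661 to 1.76) in TPC-1, where control libraries measured 11.45, 6.96 and 6.12 FPKM and those with siRNA 13.91, 6.95 and 5.72 FPKM, and at 1.00 (0.615 to 1.63) in K1. MALAT1 stood at 0.970 (0.630 to 1.49) in TPC-1, where the siRNA libraries measured 3.45, 1.93 and 1.76 FPKM, and at 1.01 (0.670 to 1.53) in K1. All of these had an adjusted p of 1 in edgeR. Changes within these bounds are not excluded by these libraries. The smallest change that could be detected was not computed for these genes. Changes beyond the bounds could also have gone without a call, since a call was adjusted over all tested genes.

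UCA1 alone had a siRNA value far from 0 in K1, on very few counts. It had 1, 0 and 0 counts in K1 control and 5, 4 and 1 counts in K1 siRNA libraries, and the lowest siRNA library equalled the highest control library. The ratio of 10 counts to 1 was 11 relative to library totals with a 95% counting interval of 1.57 to 478. The fitted log2 fold change was 3.02 (SE 0.94), with an unadjusted p of 0.0057 in edgeR and an adjusted p of 1. In TPC-1 it was -0.28 (SE 0.22; adjusted p = 1), and the difference between the lines was 3.30 (SE 0.96), with an unadjusted p of 0.00364 in edgeR and an adjusted p of 1. Over the alternatives the K1 value ran from 0.056 to 5.164, and none called it. For the other 6 tested lncRNAs the difference between the lines lay between -0.23 for GAS5 and 0.11 for MIR31HG on the log2 scale.

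Seen against their class, the lncRNAs followed here did not share a direction, although lncRNA genes at large tended to be higher in K1. Of 2530 tested lncRNA genes by GENCODE 29 biotype, 74.1% had a log2 fold change above 0 in K1 against TPC-1 control, compared with 52.0% of all tested genes. Their median was 1.15, against 0.06 for all genes and 0.19 for the 7 lncRNAs. Of the class, 1331 were called higher and 343 lower, 66.2% in all, close to the 67.9% of all tested genes. The lncRNA share of counts was 0.842% to 1.06% in TPC-1 and 1.33% to 1.78% in K1 libraries, and a gene that passed the filter only through the line in which it is high adds to these counts.

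**Figure D5:**
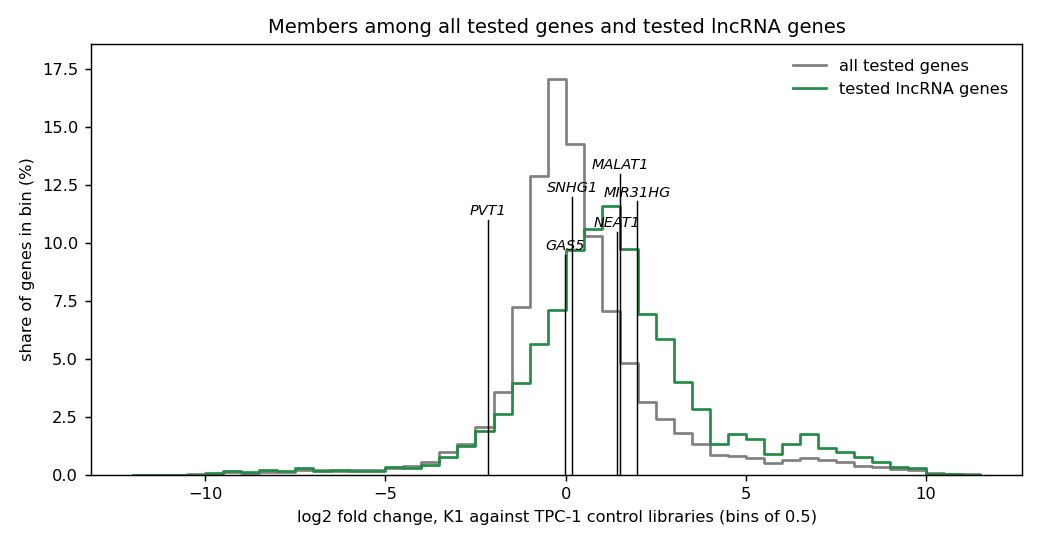
Distribution of log2 fold changes of K1 against TPC-1 control libraries in bins of 0.5 (horizontal axis) as the share of genes in percent (vertical axis), for all tested genes and for tested lncRNA genes; vertical lines mark 6 of the lncRNAs, and their heights carry no value. The lncRNA curve lies to the right of that of all genes, with MALAT1, NEAT1 and MIR31HG on its upper part and PVT1 at -2.14 on the other side.

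Related lncRNAs were read from lists by role. Of 27 further snoRNA hosts, 23 were tested; 9 were called higher and 5 lower in K1 control libraries, with a median log2 fold change of 0.05. SNHG18 lay at 3.33 (SE 0.17; edgeR, adjusted p = 9.87e-11) and SNHG3 at 1.06 (SE 0.13; adjusted p = 3.23e-06), while SNHG7 lay at -1.74 (SE 0.18; adjusted p = 5.47e-07). The other 9 tested hosts had no call, like GAS5 and SNHG1. Of 53 other cancer-related lncRNAs, 29 were tested; 15 were called higher and 9 lower, with a median of 0.51. HCP5, an lncRNA of the HLA region, had 2 counts in TPC-1 control and 846 in K1 control libraries, CDKN2B-AS1, the antisense RNA of the CDKN2B locus, had 719 and 2, and CYTOR lay at -2.68 (SE 0.17; adjusted p = 8.97e-10). The shares called were 60.9% of tested snoRNA hosts and 82.8% of the other lncRNAs, beside 67.9% of all tested genes. HCP5 and CDKN2B-AS1 passed the filter on low counts only through the line in which each is high. Such genes add to the share called.

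The mRNAs of proteins that work with MALAT1 and NEAT1 were mostly lower in K1, the line in which both lncRNAs were higher. Of 19 paraspeckle protein genes, all tested, 14 were called lower and 0 higher, with a median of -0.59. TARDBP, which encodes the RNA-binding protein TDP-43, and DAZAP1 both lay at -0.92 (SE 0.12; edgeR, adjusted p = 4.44e-06 and 5.93e-06), and RBM12 at -0.96 (SE 0.13; adjusted p = 6.43e-06). Of 20 nuclear speckle and SR protein genes, 13 were called lower and 3 higher, with a median of -0.67. The splicing factor genes SRSF1, SRSF3 and SRSF7 lay at -1.81 (SE 0.13), -1.88 (SE 0.15) and -1.32 (SE 0.12), with adjusted p-values of 4.82e-09, 1.61e-08 and 1.22e-07. The shares called were 73.7% of the paraspeckle and 80.0% of the speckle genes, beside 67.9% of all tested genes, of which 32.1% were lower. The median over all tested genes was 0.06, and no test of these lists was made.

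Genes of the processes tied to the other lncRNAs were mixed. Of 14 nonsense-mediated decay factors, the machinery that limits snoRNA host RNAs, 3 were called higher and 5 lower in K1, with a median of -0.25. Among them RBM8A lay at -1.11 (SE 0.14; edgeR, adjusted p = 5.52e-06), UPF2 at -0.64 (SE 0.13; adjusted p = 0.00048) and SMG9 at 0.78 (SE 0.13; adjusted p = 7.00e-05). Of 24 further imprinted genes, 15 were tested; 7 were called higher and 3 lower, with a median of 0.79. CDKN1C, a cell cycle inhibitor gene, lay at 5.49 (SE 0.28; adjusted p = 8.81e-11), PEG10 at 4.70 (SE 0.17; adjusted p = 2.34e-12) and PLAGL1, a zinc finger gene, at -3.26 (SE 0.17; adjusted p = 9.32e-11). Of 13 genes of PRC2 and the LSD1 complex, 2 were called higher and 6 lower, with a median of -0.21. EZH2, the methyltransferase of PRC2, lay at -2.08 (SE 0.16; adjusted p = 1.39e-08), PHF19 at -2.04 (SE 0.14; adjusted p = 3.88e-09) and JARID2 at 2.18 (SE 0.11; adjusted p = 1.35e-10). The shares called, 57.1% of the decay factors, 66.7% of the tested imprinted genes and 61.5% of the PRC2 and LSD1 genes, were close to the 67.9% of all tested genes. With TRIM35 siRNA, 0 genes of any of these lists were called in either line by edgeR.

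The genes whose levels followed each lncRNA most closely from library to library were sought among 7170 expressed genes, on log2 counts scaled to library size and centred within each line over the 12 libraries. These correlations are descriptions over libraries that share depth and composition. The leading genes were PABPC1L (r 0.98), IGFN1 and ENOSF1 (0.97 each) for MALAT1, and GOLGA8B (0.98), AHSA2P and NR2C1 (0.97 each) for NEAT1. For GAS5 they included CNPY2 (0.99) and PDCD5 (0.98). PVT1 was followed by LUC7L (0.95), CCNL2 and TPM2 (0.94 each), and SNHG1 by RABGGTB (0.91), HNRNPDL (0.91) and THOC1 (0.90). The best matches of MIR31HG, BDKRB2 (0.82), MIR4477B and ZCCHC8 (0.81 each), and of UCA1, KRT81 (0.82), POLE2 (0.80) and UGT2B7 (0.78), were looser. BDKRB2 had r 0.88 with MIR31HG in TPC-1 and -0.21 in K1, whereas MIR4477B (0.82 and 0.72) and ZCCHC8 (0.86 and 0.79) kept their sign in both. With 0 to 5 counts per K1 library, UCA1 gives no readable correlation in K1, which also weighs on its values over both lines. In TPC-1 alone, r with UCA1 was 0.43 for KRT81, 0.75 for POLE2 and -0.27 for UGT2B7. Thus UGT2B7 did not follow UCA1 in the line where UCA1 was readable.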

How the data were processed

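The authors deposited 1 table with a raw read count and an FPKM value per Ensembl gene for each of the 12 libraries. Per the labels' protocols, TRIzol total RNA was turned into cDNA with random primers. Trimming used cutadapt 1.9.1 on build hg38, per the submitters' processing notes. The sources used here do not give the aligner, counter, strandedness or any poly(A) or rRNA selection. The deposited FPKM values equal counts divided by exonic gene length and by the library's summed counts. Levels are described in FPKM and tested on counts. The labels name 1 batch. One TPC-1 control library has another line name in its title, but TPC-1 in its other labels, and was kept.

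The test was edgeR 4.0.16 (R 4.3.3): filterByExpr (17447 genes kept), TMM, 1 mean per group over all 12 libraries, 8 residual degrees of freedom, Benjamini-Hochberg adjustment over all tested genes. SE is the absolute log2 fold change over the square root of F. Intervals on folds and counts are at 95%; counting intervals cover counting error only, as the labels name no molecular identifiers. The procedure was tested on simulated data. Replicate pairs differed by 4.33 to 66.4 chi-square units per degree of freedom, so none matched within sampling noise. Biotypes came from GENCODE 29 (97.8% of tested IDs matched).

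Named genes were the 10 lncRNAs, up to 3 tested genes of each of 8 lists with the smallest adjusted p between control lines, the nearest tested coding gene on either side, the 3 best correlated genes with a mean of at least 5 FPKM in a line, and TRIM35; some genes that this rule takes are not reported here. Antisense and overlapping genes were named after their values were seen. The lncRNAs and lists were chosen with earlier results of these data known. Alternatives were RLE and upper quartile scaling, library sizes without the lncRNAs and mitochondrial genes, no filter, a 1 FPKM filter, DESeq2 1.42.0, limma 3.58.1 on log2(FPKM + 0.1) and log2(FPKM + 1), fits of the compared groups alone, a replicate block and leaving out libraries.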

Additional observations from a re-analysis of the deposited data

How the results depend on the processing

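The number of lncRNAs called was 5 between the lines and 0 in both siRNA comparisons and for their difference under every alternative run. No called value changed direction. GAS5 between the lines, at -0.01, turned above 0 with RLE scaling (0.023), upper quartile scaling (0.125), no filter (0.009), the 1 FPKM filter (0.074), DESeq2 (0.023), limma on log2(FPKM + 0.1) (0.106) or log2(FPKM + 1) (0.105), only the groups compared (0.018) and the replicate block (0.003); the cause was not tested. Of the siRNA values in K1, all within 0.1 of 0 apart from UCA1, MALAT1 turned with limma on log2(FPKM + 0.1) (-0.035) and log2(FPKM + 1) (-0.024), NEAT1 without a filter (-0.004) and with limma (-0.027 and -0.024), and PVT1 with limma on log2(FPKM + 0.1) (-0.007). Without K1 control library 1 and K1 siRNA library 3 together, an alternative chosen after seeing the data, MIR31HG turned in K1 (-0.063) and PVT1 in the difference (0.012).

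Leaving out 1 library at a time turned the sign of values near 0, none of them called. Lowest and highest values were, between the lines, -0.161 to 0.191 for GAS5; in TPC-1, -0.363 to 0.139 for MALAT1, -0.326 to 0.452 for NEAT1, -0.053 to 0.358 for GAS5, -0.094 to 0.109 for SNHG1, -0.034 to 0.175 for PVT1 and -0.187 to 0.093 for MIR31HG; in K1, -0.284 to 0.308 for MALAT1, -0.21 to 0.28 for NEAT1, -0.196 to 0.005 for GAS5, -0.034 to 0.1 for SNHG1, -0.126 to 0.193 for PVT1 and -0.05 to 0.054 for MIR31HG; and in the difference, -0.239 to 0.387 for MALAT1, -0.444 to 0.334 for NEAT1, -0.085 to 0.116 for SNHG1, -0.198 to 0.106 for PVT1 and -0.08 to 0.198 for MIR31HG.

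Replicate numbers were not taken to pair the libraries, since not every correlation was above 0.1: deviations of same-numbered libraries had correlations of 0.379, 0.0857 and 0.406 in TPC-1 and -0.491, 0.0864 and -0.526 in K1, where control libraries 1 and 3 correlated best with siRNA libraries 3 and 1 (0.577 and 0.453), whereas in TPC-1 each library correlated best with its own number. With the replicate number as a block, 5, 0, 0 and 0 lncRNAs were called, and MALAT1 (-0.027) and NEAT1 (-0.019) turned in K1.

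Depth limits UCA1 in K1 and H19, MEG3 and HOTAIR in both lines. Replication limits the siRNA comparisons of NEAT1 and MALAT1. With no filter, edgeR called 2, 2 and 4 genes in TPC-1, in K1 and for the difference, against 0 with it.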
